A study of Mus musculus with 15 samples.

Results

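The genes described here are 40 mouse genes of the lysosome and of autophagy, chosen by name from a list of lysosomal membrane, hydrolase, proton pump and autophagy genes without cathepsins. Their rows were found by matching the Ensembl identifiers of the count table to gene symbols. All 40 were among the 22165 genes of the table, and all 40 had enough reads to be tested, together with 11746 genes in all. The list was set by gene name and used no measured value. By role it holds 6 membrane proteins, 10 hydrolases, 3 lumenal cofactors, 11 subunits or accessory proteins of the vacuolar proton pump, 2 transcription factors and 8 genes of autophagosome formation and traffic.

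RNA was measured in 3 sorted subsets of thymic dendritic cells from mice that lack the kinase LKB1 in cells expressing CD11c and from wild-type mice (WT). The knockout (KO) was Itgax-cre Stk11 fl/fl, in which the promoter of the CD11c gene drives Cre, so every CD11c-expressing cell of the mouse is a possible target and not dendritic cells of the thymus alone. All mice were C57BL/6 animals of 8 to 12 weeks, of both sexes, and all carried a subcutaneous B16 melanoma secreting Flt3L, the growth factor that expands dendritic cells, for 9 to 12 days. Every group therefore describes dendritic cells of tumour-bearing, Flt3L-exposed mice. After enrichment on CD11c beads, cDC1 were sorted as CD8a+ CD11c+ MHCII+, cDC2 as CD11b+ CD11c+ MHCII+, and pDC as Siglec-H+ CD11c int. There were 2 libraries of KO cDC1, 2 of WT cDC1, 3 of KO cDC2, 2 of WT cDC2, 3 of KO pDC and 3 of WT pDC, 15 in all. The labels do not say that replicates came from separate mice, so p-values measure the spread between these samples, which may be technical.

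The lysosome is an acidic compartment in which hydrolases break down material delivered by endocytosis and by autophagy, and the vacuolar ATPase pumps protons into its lumen. In dendritic cells the same compartments process antigen for presentation on MHC class II. Starvation and the kinases AMPK and mTORC1 act on the pathway: AMPK, which LKB1 switches on, acts on the autophagy kinase ULK1, while mTORC1 holds the transcription factors TFEB and TFE3 in the cytoplasm. In the nucleus TFEB and TFE3 bind E-boxes with the core CACGTG near the starts of many lysosomal genes.

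To show that element in the genes studied, windows from 250 bases before to 50 bases after each RefSeq transcription start were searched for the 6 letters CACGTG, which read the same on both strands. A window was matched for 35 of the 40 genes, and Npc1, Asah1, Atp6v1b2, Atp6v1h and Becn1 had none. The core was found in 11 of the 35 (31.4%), against 8.09% of the 27025 genes with a window. With a T directly before or an A directly after it (TCACGTG or CACGTGA, a subset of the same matches) it was found in 10 of the 35 (28.6%), against 4.29% of all genes. The 11 genes were Lamp1, Mcoln1, Gla, Glb1, Gaa, Atp6v0b, Atp6v0d1, Atp6v0e, Atp6v1a, Atg5 and Atg7. The 27025 genes include genes that were not tested here, while all of the 35 were tested, so the 2 sets are unlike. The share over tested genes alone was not computed. A match is a description of the letters and was not read as a bound site. The 4 genes with more than 1 match are printed, from RefSeq on GRCm38.p6, 5′ to 3′ on the strand of the gene and only as far as the gene start in GENCODE M21, with the core in capitals. Lamp1 encodes a major glycoprotein of the lysosomal membrane, and its 4 matches start 61, 45, 28 and 15 bases before the RefSeq start (chr8:13158911-13159160, plus strand). Mcoln1 encodes a calcium channel of that membrane (chr8:3500269-3500456, plus strand, with 1 of its 2 matches in the printed stretch). Gla encodes alpha-galactosidase A (chrX:134601126-134601255, minus strand), and Atp6v0b a membrane subunit of the proton pump (chr4:117887334-117887579, minus strand).
Lamp1: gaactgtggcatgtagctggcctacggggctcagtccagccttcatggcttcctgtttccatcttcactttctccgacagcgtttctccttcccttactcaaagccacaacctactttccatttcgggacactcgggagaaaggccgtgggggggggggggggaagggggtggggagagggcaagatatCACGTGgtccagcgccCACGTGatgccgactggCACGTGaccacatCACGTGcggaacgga
Mcoln1: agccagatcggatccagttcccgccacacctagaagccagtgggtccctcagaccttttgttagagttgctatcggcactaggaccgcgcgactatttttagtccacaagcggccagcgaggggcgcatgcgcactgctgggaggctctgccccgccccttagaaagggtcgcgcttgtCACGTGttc
Gla: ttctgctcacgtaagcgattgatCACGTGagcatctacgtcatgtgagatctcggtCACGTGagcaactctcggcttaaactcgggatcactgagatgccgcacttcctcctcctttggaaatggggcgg
Atp6v0b: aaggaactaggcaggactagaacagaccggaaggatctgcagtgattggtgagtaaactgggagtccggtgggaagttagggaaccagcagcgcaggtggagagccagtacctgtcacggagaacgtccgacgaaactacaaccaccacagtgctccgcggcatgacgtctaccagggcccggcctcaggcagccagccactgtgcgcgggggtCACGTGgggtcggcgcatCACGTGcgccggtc

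Read totals ran from 3928164 counts in WT cDC2 replicate 1 to 12142712 in KO cDC2 replicate 2. Levels are given as CPM, counts scaled to the size of the library, and 3′-tag reads were not divided by gene length, so levels are not compared between genes. At equal depth the WT cDC2 libraries held 10840 and 11359 detected genes, the KO cDC2 libraries 12430 to 12760, the cDC1 libraries 12548 to 12642 and the pDC libraries 10846 to 11225. The 8 pDC marker genes summed to at least 32533 CPM in every pDC library and to at most 1696 CPM elsewhere. The 7 cDC2 marker genes summed to 60.6 to 116.5 CPM in cDC1, to 532.2 to 885.3 CPM in cDC2 and to 403.3 to 541.4 CPM in pDC. Their sums thus overlapped between cDC2 and pDC. The 9 cDC1 marker genes summed to 6362 to 10184 CPM in cDC1, to 1899 to 3749 CPM in cDC2 and to 6109 to 8715 CPM in pDC. Among other cell types, 12 thymocyte genes summed to 370.4 to 475.2 CPM in pDC, to 81.4 to 172.8 CPM in cDC1 and to 37.8 to 93.4 CPM in cDC2, while 12 macrophage genes summed to 131.6 to 176.0 CPM in cDC2, to 33.5 to 66.3 CPM in cDC1 and to 11.6 to 27.0 CPM in pDC. The 8 thymic stroma genes summed to 29.5 to 42.4 CPM in cDC1, to 128.0 to 290.8 CPM in cDC2 and to 96.8 to 161.5 CPM in pDC, and the 8 monocyte and neutrophil genes to 285.1 to 630.4 CPM, 474.4 to 1330 CPM and 790.7 to 1452 CPM. All 6 melanoma genes were at 0 in WT cDC2 and in pDC. These marker levels move with the subsets, and their part in the differences between subsets was not tested. In bulk samples fewer cells of a type and less RNA per cell cannot be told apart.

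Between wild-type subsets, lysosome and autophagy genes differed in both directions between pDC and cDC1, and those called between pDC and cDC2 were higher in pDC apart from Gusb. WT pDC had higher levels than WT cDC1 of Npc1, Tpp1, Grn and Map1lc3b and lower levels of Gusb, Man2b1 and Rab7, while WT cDC2 had lower levels than WT cDC1 of 7 genes and higher levels of none. Of the 40 genes, 17 differed between WT pDC and WT cDC1 (adjusted p at or under 0.05 in edgeR's quasi-likelihood test, adjusted over the 11746 genes by Benjamini and Hochberg's method). Of these 10 were higher and 7 lower in pDC, and the 17 are 42.5% of the 40, where 27.7% of all genes tested differed, 12.8% higher and 14.8% lower. Between WT pDC and WT cDC2 12 differed, 11 higher and 1 lower in pDC, which is 30% of the 40 against 23.6% of all genes, 11.4% higher and 12.2% lower. Between WT cDC2 and WT cDC1 7 differed, all lower in cDC2, which is 17.5% of the 40 against 8.73% of all genes, 3.75% higher and 4.98% lower. That single direction depended on the setting. With DESeq2 2 of 11 calls were higher in cDC2, and without the filter on low counts 1 of 9 was. The median log2 difference of the 40 genes was −0.03 for pDC minus cDC1, 0.19 for pDC minus cDC2 and −0.28 for cDC2 minus cDC1, against −0.05, 0.07 and −0.05 over all genes tested. Without WT cDC1 replicate 1 the count for WT cDC2 minus WT cDC1 was 2, and without WT cDC2 replicate 2 it was 4, while the count for WT pDC minus WT cDC1 was 10 without WT cDC1 replicate 1 and 11 without WT cDC1 replicate 2. The share of all genes tested that passed was smaller in these fits too, and each left 1 library in a group. The calls that held without each library in turn and under each other setting run were those of Npc1, Hexa, Tpp1, Man2b1, Gusb, Lipa, Grn, Atp6v1d and Rab7 for pDC against cDC1, of Cd68, Npc1, Tpp1, Gaa, Grn and Map1lc3b for pDC against cDC2, and of Psap for cDC2 against cDC1. With a fit on the WT cDC1 and WT cDC2 libraries alone, Psap was the only one of the 7 that passed, and Gusb had an adjusted p of 0.0504. In that fit 1% of all genes tested passed.

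**Figure D1:**
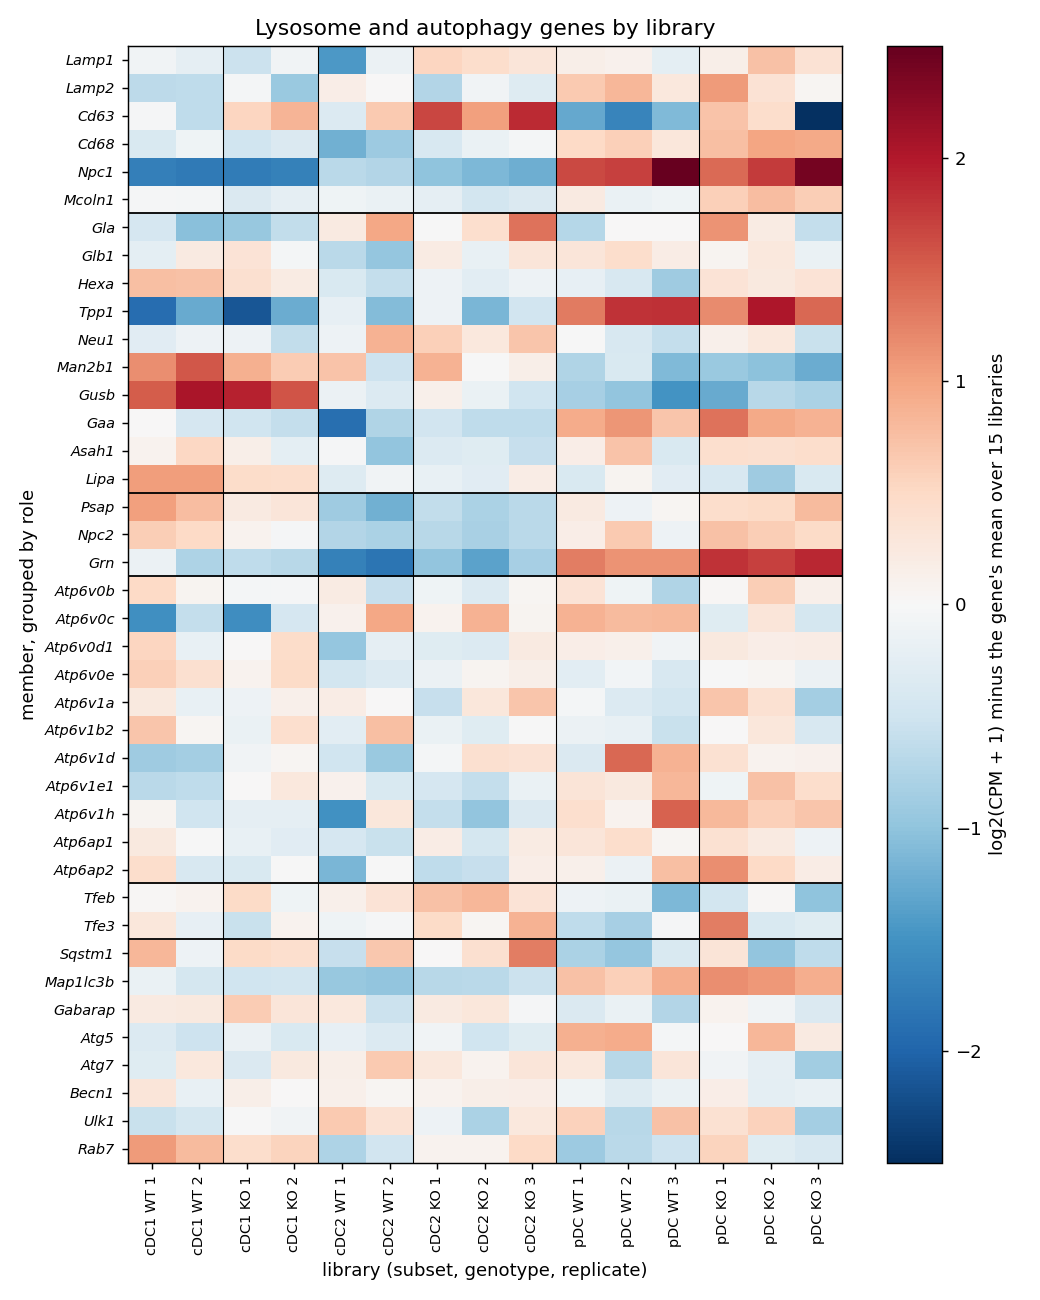
Each row is 1 of the 40 genes, grouped by role, and each column 1 of the 15 libraries; the colour gives log2(CPM + 1) minus the mean of the gene over the libraries. Npc1, Tpp1, Grn and Map1lc3b are above their mean in all 6 pDC libraries, and Gusb is above its mean in all 4 cDC1 libraries and below it in all pDC libraries.

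Among the 6 membrane proteins, Npc1, which exports cholesterol from the lysosome, stood highest in pDC. Its level was 808, 842 and 1788 CPM in the 3 WT pDC libraries, 78.3 and 75.0 CPM in WT cDC1 and 162 and 155 CPM in WT cDC2. The groups did not overlap, and the third WT pDC library was the highest. The fitted difference of Npc1 was 3.90 ± 0.40 (log2 ± SE; 14.9-fold, adjusted p = 1.45e-06) for WT pDC minus WT cDC1 and 2.85 ± 0.38 (7.22-fold, adjusted p = 2.89e-05) for WT pDC minus WT cDC2. Npc1 lies on chromosome 18 and shares its locus with Rmc1 on the opposite strand.

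Cd68, a glycoprotein of endosomes and lysosomes that is used as a macrophage marker, measured 108, 115 and 92.5 CPM in WT pDC against 32.5 and 39.9 CPM in WT cDC2 and 57.9 and 69.7 CPM in WT cDC1. It was 2.90-fold higher in WT pDC than in WT cDC2 (log2 1.53 ± 0.28, adjusted p = 0.000513). The 12 macrophage genes summed to 16.8 to 27.0 CPM in WT pDC and to 131.6 to 134.8 CPM in WT cDC2. The 8 monocyte and neutrophil genes summed to 790.7 to 1452 CPM in WT pDC and to 676.7 to 1330 CPM in WT cDC2. The part of either set in the Cd68 values was not tested. Lamp2, the second large membrane glycoprotein and a receptor of chaperone-mediated autophagy, measured 248, 279 and 189 CPM in WT pDC and 99.7 and 101 CPM in WT cDC1. Lamp2 was 2.38-fold higher in WT pDC (log2 1.25, adjusted p = 0.0134), a call that was lost without WT cDC1 replicate 1 (adjusted p = 0.0925) or replicate 2 (adjusted p = 0.078). Lamp1, the tetraspanin Cd63 and Mcoln1 did not pass the threshold in any of the 3 comparisons of WT subsets: for WT pDC minus WT cDC1 they stood at 0.17, −1.12 and 0.04 on the log2 scale.

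The 10 hydrolases split by subset. Tpp1, a peptidase that trims tripeptides, measured 198, 282 and 287 CPM in WT pDC, 69.7 and 37.4 CPM in WT cDC2 and 20.6 and 32.8 CPM in WT cDC1, with no overlap between pDC and the other subsets. It was 9.54-fold higher in WT pDC than in WT cDC1 (log2 3.25 ± 0.45, adjusted p = 3.69e-05) and 4.79-fold higher than in WT cDC2 (2.26 ± 0.43, adjusted p = 0.000803). Gaa, the acid alpha-glucosidase that degrades glycogen, was 28.0, 32.0 and 23.7 CPM in WT pDC, 14.3 and 10.4 CPM in WT cDC1 and 3.16 and 8.13 CPM in WT cDC2. Gaa was 4.82-fold higher in WT pDC than in WT cDC2 (log2 2.27 ± 0.42, adjusted p = 0.000698), and its call against WT cDC1 (log2 1.18, adjusted p = 0.0338) was lost without WT cDC1 replicate 1 (adjusted p = 0.0925) or 2 (0.235), WT pDC replicate 1 (0.0573) or 2 (0.0763) or KO cDC1 replicate 2 (0.05). Without WT cDC2 replicate 2 the log2 difference of Gaa between WT pDC and WT cDC2 was 3.14. Glb1, beta-galactosidase, was higher in WT pDC than in WT cDC2 by 1.22 on the log2 scale (adjusted p = 0.0208), and without WT cDC2 replicate 2 the adjusted p was 0.124. The gene Tmppe overlaps Glb1 on the same strand, so reads of the 2 may be mixed.

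Gusb, beta-glucuronidase, ran the other way. Its level was 277 and 396 CPM in WT cDC1, 86.7 and 75.5 CPM in WT cDC2 and 53.3, 48.1 and 33.5 CPM in WT pDC, so that the 3 subsets did not overlap. Gusb was 4.15-fold lower in WT cDC2 than in WT cDC1 (log2 −2.05 ± 0.34, adjusted p = 0.00269) and 7.48-fold lower in WT pDC than in WT cDC1 (−2.90 ± 0.31, adjusted p = 1.71e-06). It was also the 1 gene lower in WT pDC than in WT cDC2 (−0.85 ± 0.30, adjusted p = 0.0481), a call so near the threshold that leaving out any of 12 single libraries ended it, with an adjusted p of 0.189 without WT cDC2 replicate 1. Man2b1, the acid alpha-mannosidase, measured 262 and 347 CPM in WT cDC1 against 69.0, 90.0 and 54.1 CPM in WT pDC, and was 4.29-fold lower in pDC (log2 −2.10 ± 0.36, adjusted p = 0.00029). Its WT cDC2 libraries, at 193 and 81.0 CPM, lay below WT cDC1, and the lower of them lay within the range of WT pDC.

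Hexa, a subunit of beta-hexosaminidase, and Lipa, the acid lipase that frees cholesterol from its esters, had the same order, with cDC1 above the other subsets. Hexa measured 97.6 and 96.5 CPM in WT cDC1, 43.9 and 37.7 CPM in WT cDC2 and 50.0, 43.7 and 30.6 CPM in WT pDC. Lipa measured 139 and 140 CPM, then 53.2 and 62.8 CPM, then 51.2, 69.9 and 55.0 CPM in the same order. WT cDC2 and WT pDC overlapped for both genes, and both subsets lay below WT cDC1. In pDC against cDC1 Hexa was lower by 2.35-fold (adjusted p = 0.00229) and Lipa by 2.38-fold (adjusted p = 0.00247). In cDC2 against cDC1 the calls of Hexa (log2 −1.25, adjusted p = 0.017) and Lipa (−1.26, adjusted p = 0.0183) rested on single libraries. Hexa was not called without WT cDC1 replicate 1 (adjusted p = 0.111) or 2 (0.0738) or WT cDC2 replicate 2 (0.0906), and Lipa without any 1 of the 4 libraries (adjusted p = 0.0535 to 0.111). Gla, Neu1 and Asah1, 3 enzymes of glycolipid, sialic acid and ceramide breakdown, passed the threshold in no comparison of subsets in either genotype.

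**Figure D2:**
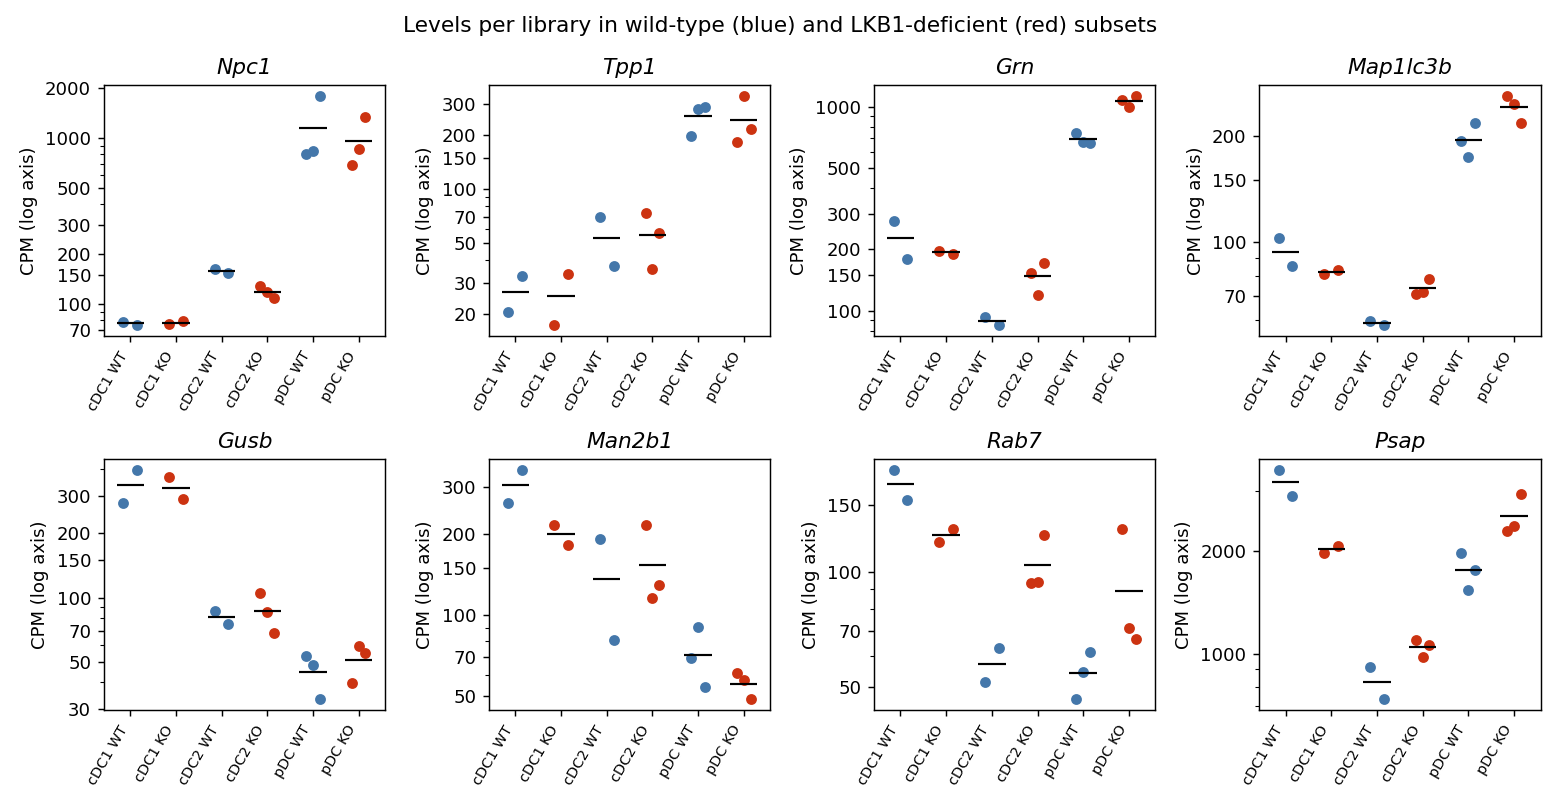
Levels of 8 genes in CPM on log axes, 1 point per library, in WT (blue) and KO (red) cDC1, cDC2 and pDC; bars are group means. Npc1, Tpp1, Grn and Map1lc3b are highest in the pDC libraries of both genotypes, and Gusb and Man2b1 have their highest group mean in WT cDC1 and their lowest in pDC.

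The 3 lumenal cofactors, soluble proteins without an enzyme activity of their own, were all lowest in cDC2. Psap, the precursor of the saposins that lift lipids out of membranes for the hydrolases, measured 3465 and 2913 CPM in WT cDC1, 1971, 1542 and 1761 CPM in WT pDC and 912 and 737 CPM in WT cDC2, with no overlap between the subsets. It was 3.87-fold lower in WT cDC2 than in WT cDC1 (log2 −1.95 ± 0.27, adjusted p = 0.000511) and 2.13-fold higher in WT pDC than in WT cDC2 (1.09 ± 0.24, adjusted p = 0.00324). The difference between WT pDC and WT cDC1 (log2 −0.86 ± 0.23, adjusted p = 0.0106) was not called without WT cDC1 replicate 1 (adjusted p = 0.128).

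Grn, progranulin, a secreted and lysosomal protein, measured 744, 670 and 666 CPM in WT pDC, 277 and 179 CPM in WT cDC1 and 93.7 and 85.2 CPM in WT cDC2. The 3 subsets did not overlap. Grn was 7.75-fold higher in WT pDC than in WT cDC2 (log2 2.95 ± 0.29, adjusted p = 1.18e-06) and 3.04-fold higher than in WT cDC1 (1.60 ± 0.27, adjusted p = 0.000262). It was lower in WT cDC2 than in WT cDC1 by 2.55-fold (adjusted p = 0.00873), a call that was lost without WT cDC1 replicate 1 (adjusted p = 0.141) or WT cDC2 replicate 2 (0.0549). Npc2, which hands cholesterol to Npc1, did not share its pattern: Npc2 measured 449 and 413 CPM in WT cDC1, 175 and 169 CPM in WT cDC2 and 329, 458 and 269 CPM in WT pDC, so that WT cDC1 and WT pDC overlapped. Npc2 was 2.51-fold lower in WT cDC2 than in WT cDC1 (adjusted p = 0.00923) and 2.06-fold higher in WT pDC than in WT cDC2 (adjusted p = 0.00831), and without WT cDC2 replicate 2 both calls were lost, with adjusted p-values of 0.0529 and 0.0572. The first was also lost without WT cDC1 replicate 1 (0.0801).

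Of the 11 proton pump genes, 4 passed in WT pDC against WT cDC1 (3 higher, 1 lower), 1 in WT pDC against WT cDC2 and 0 in WT cDC2 against WT cDC1. These are 36.4%, 9.09% and 0% of the 11, beside 27.7%, 23.6% and 8.73% of all genes tested. Atp6v1d, a subunit of the central stalk, measured 161, 561 and 382 CPM in WT pDC, 112 and 115 CPM in WT cDC1 and 146 and 108 CPM in WT cDC2. All WT pDC libraries were above the others, but the 3 differed among themselves by more than 3-fold. Atp6v1d was 3.24-fold higher in WT pDC than in WT cDC1 (log2 1.69 ± 0.39, adjusted p = 0.00339), and its call against WT cDC2 (1.53, adjusted p = 0.00768) was lost without WT cDC2 replicate 2 (adjusted p = 0.0853). The others were Atp6v1e1 (log2 1.16, adjusted p = 0.0116), Atp6v0e (−0.75, adjusted p = 0.0329) and Atp6v0c, the proteolipid of the membrane ring (2.25, adjusted p = 0.0297). Atp6v0c rested on 0.938 to 10.1 CPM per library and has 2 processed copies in the genome, Atp6v0c-ps1 and Atp6v0c-ps2, so its counting is uncertain. All 3 of these calls were lost without either WT cDC1 library: without replicate 1 and 2 the adjusted p was 0.0847 and 0.0687 for Atp6v1e1, 0.233 and 0.078 for Atp6v0e and 0.255 and 0.05 for Atp6v0c, whose log2 difference moved to 3.23 without replicate 2. That of Atp6v0e was lost as well without WT pDC replicate 1 (0.0695) or 3 (0.0793). Atp6ap1, Atp6ap2, Atp6v0b, Atp6v0d1, Atp6v1a and Atp6v1b2 passed in no comparison of subsets in either genotype.

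The 2 transcription factors gave no call between WT subsets. Tfeb measured 17.6 and 18.4 CPM in WT cDC1, 18.9 and 22.0 CPM in WT cDC2 and 15.8, 15.4 and 7.37 CPM in WT pDC, and Tfe3 measured 42.7 and 30.2, 32.3 and 34.2, and 22.1, 19.2 and 33.9 CPM in the same order. Both genes were lowest in 1 WT pDC library, and the fitted differences of WT pDC minus WT cDC1 were −0.49 for Tfeb and −0.54 for Tfe3 on the log2 scale. RNA levels do not show where these proteins were in the cell. Genes with the E-box core gave 3 calls of 11 in WT pDC minus WT cDC1, 3 of 11 in WT pDC minus WT cDC2 and 0 of 11 in WT cDC2 minus WT cDC1, and the 24 genes with a window but no core gave 13, 8 and 7. Of all genes tested 27.7%, 23.6% and 8.73% were called, and a difference between the sets with and without the core was not tested.

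Of the 8 autophagy genes, Map1lc3b, which encodes the LC3B protein that coats autophagosome membranes, was highest in pDC. It measured 193, 174 and 217 CPM in WT pDC, 102 and 85.2 CPM in WT cDC1 and 59.5 and 58.0 CPM in WT cDC2, and the subsets did not overlap. Map1lc3b was 3.31-fold higher in WT pDC than in WT cDC2 (log2 1.73 ± 0.26, adjusted p = 9.08e-05) and 2.08-fold higher than in WT cDC1 (1.05 ± 0.25, adjusted p = 0.0044), the latter not called without WT cDC1 replicate 2 (adjusted p = 0.0674). A predicted gene, Gm20388, overlaps it on the same strand, and part of its end sequence also occurs in other transcripts. Rab7, the GTPase of late endosomes that drives fusion with lysosomes, ran opposite, at 185 and 154 CPM in WT cDC1, 51.5 and 63.3 CPM in WT cDC2 and 46.5, 54.6 and 61.5 CPM in WT pDC. WT cDC2 and WT pDC overlapped and both lay below WT cDC1. Rab7 was 3.12-fold lower in WT pDC than in WT cDC1 (log2 −1.64 ± 0.31, adjusted p = 0.000627), and its call in WT cDC2 against WT cDC1 (−1.56 ± 0.35, adjusted p = 0.0109) was lost without WT cDC1 replicate 1 (adjusted p = 0.0941) or WT cDC2 replicate 1 (0.0664). A processed copy, Rab7-ps1, could take or give reads of this gene.

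Atg5, part of the conjugation machinery that lipidates LC3, passed against both subsets (log2 1.09, adjusted p = 0.0211, and 0.93, adjusted p = 0.0499). Its first call was lost without WT cDC1 replicate 1 (0.0888) or 2 (0.134) or WT pDC replicate 1 (0.0609) or 2 (0.0631), and its second without any of 12 single libraries, with an adjusted p of 0.199 without WT cDC2 replicate 2. The initiating kinase Ulk1, the cargo receptor Sqstm1 (p62), Gabarap, Atg7 and Becn1 did not pass in any comparison of subsets. Ulk1 was low throughout, at 2.10 to 8.27 CPM. Sqstm1 measured 233 and 119 CPM in WT cDC1, 87.2 and 208 CPM in WT cDC2 and 75.0, 66.2 and 99.1 CPM in WT pDC, so that the libraries of 1 cDC group differed about as much as the groups did. For Sqstm1 the difference of WT pDC minus WT cDC1 was −1.13 on the log2 scale and not called.

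The same comparisons were made in KO libraries, which share no library with the WT comparisons. In KO pDC against KO cDC1 9 of the 40 genes passed, 6 higher and 3 lower, a share of 22.5% near the 21.5% of all genes tested (9.08% higher, 12.4% lower). In KO pDC against KO cDC2 15 passed, 12 higher and 3 lower, a share of 37.5% against 25.9% (10.9% higher, 14.9% lower). In KO cDC2 against KO cDC1 Gusb passed (3.79-fold lower in cDC2, adjusted p = 0.00213), against 1.27% of all genes (0.724% higher, 0.545% lower). The median log2 difference of the 40 genes was 0.32, 0.16 and −0.05, against −0.09, −0.08 and −0.02 over all genes. Without KO cDC2 replicate 1 the count for KO pDC against KO cDC2 was 9, where 20.1% of all genes tested passed. In KO cDC2 against KO cDC1 the count was 2 when KO pDC replicate 3, WT pDC replicate 2 or WT pDC replicate 3 was left out. There 1.72%, 1.47% and 1.7% of all genes passed. The calls of Cd68, Npc1, Tpp1, Man2b1, Grn and Map1lc3b held in KO pDC against both other KO subsets without each library in turn and under each other setting run.

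For pDC against cDC1, 8 genes passed in the same direction in both genotypes, which is 47.1% of the WT calls and 88.9% of the KO calls: Npc1, Tpp1, Man2b1, Gusb, Gaa, Lipa, Grn and Map1lc3b. The KO calls of Gaa and Lipa were lost without either KO cDC1 library. That of Lipa was also lost without KO pDC replicate 2 (adjusted p = 0.0601). For pDC against cDC2 the shared genes were 9, which is 75% of the WT calls and 60% of the KO calls: Cd68, Npc1, Tpp1, Gusb, Gaa, Psap, Npc2, Grn and Map1lc3b. Of these, Gusb was near the threshold in both genotypes: its KO call (log2 −0.76, adjusted p = 0.0488) was lost without any of 11 single libraries, with an adjusted p of 0.182 without KO cDC2 replicate 1, and under 6 of the 7 other settings (adjusted p = 0.0621 to 0.152), and its WT call was lost as described above. Across the 40 genes, which are not independent replicates, WT and KO differences correlated with Pearson's r of 0.878 for pDC minus cDC1, 0.883 for pDC minus cDC2 and 0.77 for cDC2 minus cDC1. Neither the shared calls nor the correlations were computed over all genes tested. They are therefore not shown to be particular to these 40 genes. In KO libraries Npc1 measured 688, 865 and 1352 CPM in pDC, 76.0 and 79.0 CPM in cDC1 and 129, 118 and 109 CPM in cDC2, and its difference of 3.64 for KO pDC minus KO cDC1 (12.5-fold, adjusted p = 3e-06) lay close to that in WT. Grn measured 1078, 998 and 1126 CPM in KO pDC, 197 and 190 CPM in KO cDC1 and 154, 120 and 173 CPM in KO cDC2, with a 7.18-fold difference between KO pDC and KO cDC2 (adjusted p = 1.3e-07). Gusb measured 367 and 289, 105, 86.0 and 68.1, and 39.6, 59.1 and 54.8 CPM in KO cDC1, cDC2 and pDC, again without overlap.

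Some genes passed in 1 genotype, which does not show that the genotypes differ. Rab7 measured 119 and 130 CPM in KO cDC1, 93.7, 94.0 and 125 CPM in KO cDC2 and 129, 71.2 and 66.5 CPM in KO pDC, so that KO pDC overlapped both other subsets and KO cDC2 overlapped KO cDC1, while in WT cDC1 lay above both other subsets. Psap in KO cDC1 (1979 and 2080 CPM) lay below KO pDC (2287, 2367 and 2947 CPM), whereas WT cDC1 lay above WT pDC. Cd68 passed in KO pDC against KO cDC1 (log2 1.35, adjusted p = 0.00137) with levels of 129, 151 and 148 CPM against 53.4 and 58.3 CPM. Man2b1 passed in KO pDC against KO cDC2 (2.76-fold lower, adjusted p = 0.00296). Tfeb passed there too, at 12.3, 17.6 and 8.06 CPM in KO pDC and 29.5, 31.4 and 22.1 CPM in KO cDC2 (log2 −1.12 ± 0.37, adjusted p = 0.0316). The Tfeb call was lost without KO pDC replicate 1 (adjusted p = 0.0733) or 3 (0.118) or KO cDC2 replicate 1 (0.0836) or 2 (0.108), and with offsets for transcript length and GC content (0.0701). Mcoln1 passed there as well (11.4, 12.9 and 11.6 CPM in KO pDC, 5.99, 4.95 and 5.37 CPM in KO cDC2, log2 1.14, adjusted p = 0.0435), and it was lost when any of 10 single libraries was left out, with an adjusted p of 0.135 without KO cDC2 replicate 2. Lamp2, Atp6v1e1 and Atp6v1h were the other genes that passed in KO pDC against KO cDC2 and not in WT, and each was lost without KO cDC2 replicate 1 (adjusted p = 0.133, 0.109 and 0.0539).

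**Figure D3:**
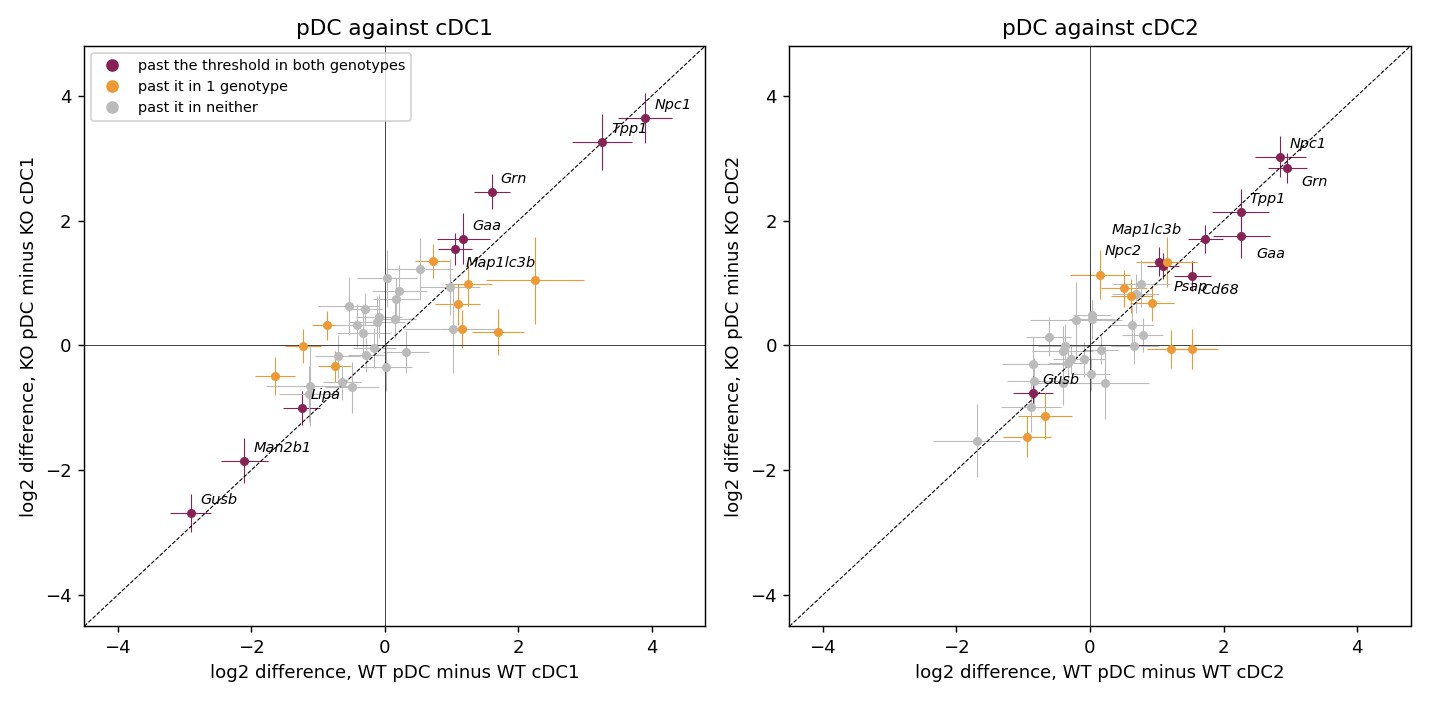
Log2 difference of each of the 40 genes between pDC and cDC1 (left) and between pDC and cDC2 (right), in WT libraries on the horizontal axis and KO libraries on the vertical axis; bars are 1 SE and the dashed line marks equal differences. Npc1 and Tpp1 lie at the upper right and Gusb and Man2b1 at the lower left of the pDC against cDC1 panel.

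The effect of the knockout was read within each subset. Stk11, the targeted gene, was 18.4 to 30.6 CPM in KO cDC1 against 35.6 to 54.2 CPM in WT cDC1, 28.2 to 36.1 against 34.2 to 34.9 CPM in cDC2 and 33.2 to 43.5 against 40.6 to 66.8 CPM in pDC. Its differences were −0.88 ± 0.36, −0.15 ± 0.33 and −0.44 ± 0.29 on the log2 scale (adjusted p = 1, 0.891 and 0.633), and tags from the 3′ end of a transcript do not check a deletion of internal exons. No gene of the 40 passed the threshold in cDC1 (0.0255% of all genes tested did), in cDC2 (0.119%), in pDC (0.0681%) or averaged over the subsets (0.306%). At an unadjusted p under 0.05 there were 2, 6, 6 and 4 genes of 40, where 3.83%, 13.3%, 10.6% and 10.2% of all genes reached that level, and DESeq2 called 0 in each. Of all genes with an adjusted p in DESeq2, 0.45%, 1.87%, 1.2% and 1.13% passed. The 95% interval of the KO minus WT difference lay within a 2-fold change either way for 15 of 40 genes in cDC1, 17 in cDC2, 22 in pDC and 38 for the average, so in single subsets changes of about 2-fold could not be told from none for many genes.

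By sign alone, 19 of the 40 differences (47.5%) were negative in cDC1 and positive in both cDC2 and pDC, against 17.7% of all genes tested. Among them were the 3 lumenal cofactors, Lamp1, Cd68, Hexa, Gusb, Gaa, Tfe3, Map1lc3b and Rab7. This was the largest of the sign patterns counted. Positive in all 3 subsets were 4 genes (10%), against 13.7% of all genes tested. Negative in all 3 were 2 genes, and 6 were positive in cDC1 and negative in cDC2 and pDC. For the last 2 patterns the share of all genes was not computed. These signs were given no test, and the genes are not independent. The 40 genes had a median log2 difference of −0.11 in cDC1, of 0.15 in cDC2 and of 0.19 in pDC, against 0, 0.09 and 0 over all genes. All 10 hydrolases had a positive difference in cDC2, with a median of 0.10, and 9 of 10 a negative one in cDC1, with a median of −0.26. Over all genes tested 55.3% were positive in cDC2 and 50% in cDC1. The hydrolase median in cDC2 was thus close to the 0.09 of all genes. In cDC2 the WT libraries also held fewer detected genes than the KO libraries, and in cDC1 the 12 thymocyte genes summed to 149.4 to 172.8 CPM in WT and 81.4 to 118.5 CPM in KO and the 12 macrophage genes to 33.5 to 37.3 CPM in WT and 56.3 to 66.3 CPM in KO. The part of these features in the differences was not tested.

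**Figure D4:**
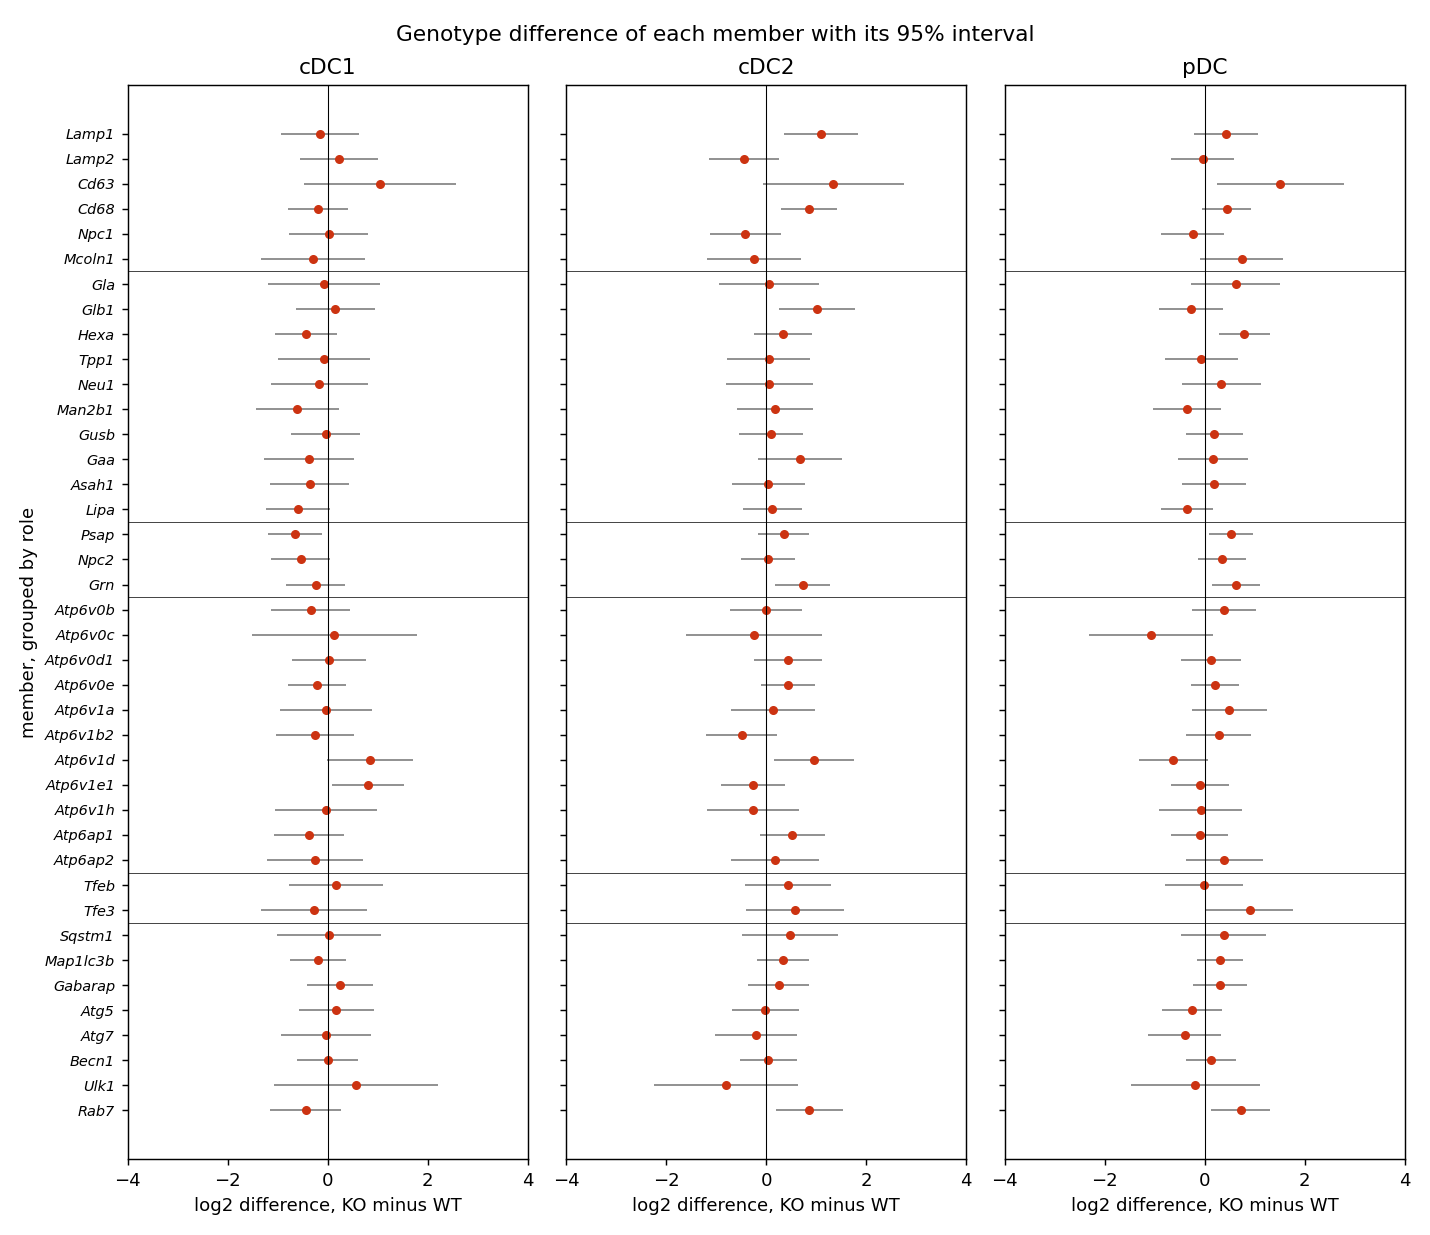
KO minus WT difference of each of the 40 genes on the log2 scale in cDC1, cDC2 and pDC, with its 95% interval, grouped by role. No gene passed the threshold in these panels; Cd63 is positive in all 3, and Psap is negative in cDC1 and positive in cDC2 and pDC.

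Cd63 had the smallest p of the 40 genes for the average over subsets. It measured 32.2 and 40.1 CPM in KO cDC1 against 21.3 and 13.7 CPM in WT cDC1, and 71.3, 45.1 and 81.9 CPM in KO cDC2 against 17.0 and 34.8 CPM in WT cDC2. In pDC it measured 36.3, 29.9 and 2.45 CPM in KO against 8.33, 6.19 and 9.52 CPM in WT. The KO libraries were above the WT libraries in cDC1 and cDC2 without overlap, and in pDC the third KO library was the lowest of all. The share of all genes without overlap in these subsets was not computed. The fitted KO minus WT differences of Cd63 were 1.05 in cDC1, 1.34 ± 0.67 in cDC2, 1.51 ± 0.60 in pDC (95% interval 0.25 to 2.78, adjusted p = 0.42) and 1.30 ± 0.38 on average (adjusted p = 0.234). Without KO pDC replicate 3 the pDC difference was 2.04 (adjusted p = 0.0367) and the average 1.48 (adjusted p = 0.00675). Without the filter on low counts it was also called, at 1.52 in pDC (adjusted p = 0.0123) and 1.28 on average (adjusted p = 8.57e-05), so the call of Cd63 depends on these choices. A processed copy, Cd63-ps, is not counted in the table.

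In cDC2 the 3 smallest p-values were those of Cd68, Lamp1 and Glb1. Cd68 was 57.1, 66.9 and 73.2 CPM in KO cDC2 against 32.5 and 39.9 CPM in WT, a difference of 0.86 ± 0.27 (adjusted p = 0.189). Lamp1 was 99.6, 93.6 and 84.1 CPM in KO against 24.8 and 61.8 CPM in WT, a difference of 1.09 ± 0.35 (adjusted p = 0.208). Glb1 was 19.7, 14.7 and 21.1 CPM in KO against 10.2 and 8.13 CPM in WT, a difference of 1.01 ± 0.36 (adjusted p = 0.247). None of the differences passed. The groups did not overlap, but the 3 genes were picked by smallest p from these same libraries. How many of all genes tested separate in this way was not computed. Leaving out WT cDC2 replicate 2, the difference of Lamp1 was 1.91 with an adjusted p of 0.0593, and that of Cd63 was 1.97 with an adjusted p of 0.367. The 12 macrophage genes summed to 155.1 to 176.0 CPM in KO cDC2 and to 131.6 to 134.8 CPM in WT cDC2, and their part in the Cd68 values was not tested.

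In pDC the smallest p-values were those of Hexa, Grn and Rab7. Hexa was 73.0, 68.9 and 73.2 CPM in KO against 50.0, 43.7 and 30.6 CPM in WT, a difference of 0.79 ± 0.24 (95% interval 0.28 to 1.30, adjusted p = 0.296). The levels of Grn and Rab7 given above put every KO pDC library above every WT pDC library. Their differences were 0.62 ± 0.23 (adjusted p = 0.388) and 0.72 ± 0.28 (adjusted p = 0.409). In cDC1 the smallest p-values were those of Psap, at −0.65 ± 0.26 (1979 and 2080 CPM in KO, 3465 and 2913 CPM in WT), of Atp6v1e1, at 0.80 (88.0 and 105 against 54.4 and 56.4 CPM), and of Atp6v1d, at 0.85 (195 and 214 against 112 and 115 CPM). These groups did not overlap, and the adjusted p was 1 for each of the 3. In pDC and cDC1 too the genes were picked by smallest p. The share of all genes that separate in this way was not computed.

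The genes nearest to the LKB1 and AMPK arm of the pathway gave differences of either sign. Tfeb stood at 0.17, 0.43 and −0.01 in cDC1, cDC2 and pDC, and Tfe3 at −0.27, 0.58 and 0.90. In KO pDC the first library had 85.9 CPM of Tfe3 and the other two 26.5 and 27.8 CPM, against 22.1, 19.2 and 33.9 CPM in WT pDC. Ulk1 stood at 0.57, −0.80 and −0.19, with 95% intervals reaching from −1.07 to 2.22 in cDC1 and from −2.24 to 0.64 in cDC2. Mcoln1 stood at −0.30, −0.25 and 0.74, Sqstm1 at 0.02, 0.48 and 0.38 and Map1lc3b at −0.19, 0.33 and 0.31. Becn1, a subunit of the lipid kinase complex that starts autophagosomes, had among the narrowest intervals, from −0.62 to 0.61 in cDC1 and from −0.38 to 0.63 in pDC around differences of −0.00 and 0.12. The 11 genes with an E-box core had median differences of −0.08, 0.13 and 0.20 in cDC1, cDC2 and pDC, and the 24 genes without it −0.18, 0.29 and 0.30.

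Whether the knockout effect differed between subsets was tested directly. No gene of the 40 passed for cDC2 against cDC1 (0.00851% of all genes tested did), for pDC against cDC1 (0%) or for pDC against cDC2 (0%), with 6, 6 and 2 genes at an unadjusted p under 0.05, where 8.46%, 8.26% and 8.41% of all genes reached that level. DESeq2 called 0, 1 and 0 of the 40 genes in the 3 tests, where 0.424%, 0.897% and 0.333% of all genes with an adjusted p passed. Psap had the smallest p for pDC against cDC1, with a difference of effects of 1.18 ± 0.34 (adjusted p = 0.275), and DESeq2 gave 1.23 with an adjusted p of 0.0162 for it. Hexa followed at 1.22 ± 0.39 (adjusted p = 0.337). Atp6v1d had an effect in pDC below those in cDC1 and cDC2, by −1.48 (adjusted p = 0.413) and −1.59 (adjusted p = 0.398). For cDC2 against cDC1 Rab7 stood at 1.30 ± 0.46 (adjusted p = 0.51).

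Another 141 genes of the pathway, 132 of them tested, were read in the same way. In WT pDC against WT cDC1 37 of the 132 passed (19 higher, 18 lower), which is 28.0% of them beside 27.7% of all genes tested. In WT pDC against WT cDC2 38 passed (23 higher, 15 lower), 28.8% beside 23.6%, and in WT cDC2 against WT cDC1 15 (3 higher, 12 lower), 11.4% beside 8.73%. In KO libraries the counts were 31 (23.5% beside 21.5%), 38 (28.8% beside 25.9%) and 4 (3.03% beside 1.27%). With edgeR no gene of the list passed for KO minus WT in cDC1, cDC2 or pDC, where 0.0255%, 0.119% and 0.0681% of all genes did. At an unadjusted p under 0.05 there were 0, 21 and 9 of the 132, where 3.83%, 13.3% and 10.6% of all genes reached that level. Of the 29 hydrolases tested in this list, 1 was higher and 9 lower in WT pDC than in WT cDC1, and 5 were higher and 8 lower than in WT cDC2. Of its 25 membrane genes, 9 were higher and 2 lower in WT pDC against either subset. Over all genes tested, 12.8% were higher and 14.8% lower in WT pDC than in WT cDC1. Against WT cDC2 the shares were 11.4% and 12.2%.

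Ppt1, which removes palmitate from proteins, measured 1386 and 1684 CPM in WT cDC1, 484 and 257 CPM in WT cDC2 and 126, 127 and 102 CPM in WT pDC, without overlap. It was 12.9-fold lower in WT pDC than in WT cDC1 (adjusted p = 7.65e-07) and 17.0-fold lower in KO pDC than in KO cDC1 (adjusted p = 3.52e-07). Arsb and Fuca1, a sulfatase and a fucosidase, were lower in WT pDC than in WT cDC1 by 8.93-fold (adjusted p = 7.55e-07) and 6.98-fold (adjusted p = 6.11e-07). Cd164, a sialomucin of endosomes and the cell surface, measured 281, 317 and 374 CPM in WT pDC against 44.1 and 40.2 CPM in WT cDC1 and 43.0 and 32.5 CPM in WT cDC2. Cd164 was 7.68-fold and 8.59-fold higher in WT pDC than in WT cDC1 and WT cDC2 (adjusted p = 2.48e-06 and 2.09e-06). Calcoco1, a receptor for selective autophagy of the endoplasmic reticulum, was 37.1, 34.4 and 48.4 CPM in WT pDC and at most 4.46 CPM in the WT cDC libraries, an 11.8-fold difference against WT cDC2 (adjusted p = 7.06e-06). Wdfy3, a scaffold for autophagy of protein aggregates, was lower in WT pDC, at 4.04, 8.77 and 5.10 CPM against 55.1 and 47.4 CPM in WT cDC2 (8.57-fold, adjusted p = 0.000173).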

How the data were processed

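The values deposited by the authors were unnormalized read counts for each gene, from strand-specific 3′-tag libraries. Per the submitters' processing notes, STAR, HTSeq, DESeq2 and mm10 were used. What each did, its version, the strand setting and any removal of duplicates are not stated in the sources used here. No molecular identifiers are mentioned, so reads need not be independent molecules. Identifiers were matched to GENCODE M21 (GRCm38) names for 21745 of 22165 genes, and 0 value columns were left unused.

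The filterByExpr function of edgeR 4.0.16 (R 4.3.3) kept 11746 genes, and the rest made up 0.0538% of all counts. After TMM scaling, a robust quasi-likelihood model with 1 coefficient for each of the 6 groups was fitted to all 15 libraries, and its common biological coefficient of variation was 0.395. P-values are two-sided and adjusted by the Benjamini-Hochberg method over all genes tested, with a threshold of 0.05. The spread was pooled over the groups, which the groups of 2 libraries rely on. CPM are on the scaled library sizes. Before use the method was run on counts simulated from its own fitted model with known changes. Its assumptions held there by construction, so that run does not test them in these libraries.

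The alternatives were RLE scaling, no filter, a filter of 10 CPM, a replicate block, only the groups compared, DESeq2 1.42.0, leaving out each library, and offsets for transcript length and GC content. Replicate numbers did not pair the samples: of 33 pairs of libraries with the same number in different groups, 6 had deviations correlated above 0.1 (median −0.020). Genes were named when past the threshold (up to 10 per comparison with the smallest p, otherwise the 3 with the smallest p), with a set of fixed names (Lamp1, Cd63, Cd68, Mcoln1, Tfeb, Tfe3, Ulk1, Sqstm1, Map1lc3b, Stk11); further genes were named after their values were seen. Of the other pathway genes up to 4 per comparison were open to naming. The 40 genes, the other lists and the alternatives were chosen with earlier results of these data known.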

Additional observations from a re-analysis of the deposited data

How the results depend on the processing

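No fitted difference changed sign in 758 values of 109 results under other settings, nor without any single library. The 109 results had been picked from the same libraries, as those past the threshold or with the smallest p, with Cd63 added for the genotype. A change of sign was therefore unlikely from the start, and its absence is not a test of these results. Counts of the 40 genes moved as follows. Without the filter on low counts 1 gene passed for KO minus WT in pDC (1.25% of all genes tested in that setting) and 1 for the average over subsets (1.02%), both Cd63. In KO cDC2 minus KO cDC1 2 passed (2.53%). That last count was also 2 with the filter of 10 CPM (1.91%), with only the groups compared (5.3%) and with DESeq2 (3.25%). With DESeq2 1 gene (Psap) passed for the difference of effects between pDC and cDC1 (0.897% of all genes with an adjusted p). In WT cDC2 minus WT cDC1 11 passed with DESeq2, 2 higher and 9 lower (14.9%). With only the groups compared, which leaves fewer samples, 1 passed in WT cDC2 minus WT cDC1 and 7 in WT pDC minus WT cDC2. The shares of all genes passing there were 1% and 14.5%, against 8.73% and 23.6% in the main fit. With offsets for transcript length and GC content, chosen after seeing the data, 14 passed in KO pDC minus KO cDC1. The share of all genes there was 21%, against 21.5% in the main fit, and the cause was not tested. Leaving out 1 library gave 2 to 9 genes in WT cDC2 minus WT cDC1, 10 to 18 in WT pDC minus WT cDC1, 10 to 12 in WT pDC minus WT cDC2, 1 to 2 in KO cDC2 minus KO cDC1, 7 to 11 in KO pDC minus KO cDC1, 9 to 18 in KO pDC minus KO cDC2, 0 to 1 for KO minus WT in pDC and for the average, and 0 in the other genotype tests. Kept without each library in turn were 2 of 7, 9 of 17, 7 of 12, 1 of 1, 7 of 9 and 9 of 15 calls in the same order. The share of all genes passing moved as well when 1 library was left out. With the replicate block the counts of the 40 genes were 7, 16, 11, 1, 10 and 12, and 0 in each genotype test. Beside those 6 counts, 7.14%, 23.6%, 20.1%, 1.01%, 19% and 24% of all genes passed. The numbers gave no sign of pairing the samples, within the limits of the check described above, and 3 of 15 libraries correlated best with their own number. Low counts limit Ulk1, Mcoln1, Gaa and Atp6v0c. The average over subsets uses all groups, so it has no fit on fewer groups.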
